A study of Homo sapiens with 6 samples.

Results

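The 10 genes described here encode interferon-inducible enzymes that act on RNA or on nucleotides in antiviral defence, namely *EIF2AK2*, *ADAR*, *SAMHD1*, *RSAD2*, *CMPK2*, *ISG20*, *PNPT1*, *ZNFX1*, *APOBEC3F* and *APOBEC3G*. They were chosen by symbol from their known functions, and all 10 are among the 19225 symbols of the expression table. RNA sequencing covered 6 libraries of SW480, an established line of colon cancer cells that carry mutant p53. The 3 control libraries and the 3 libraries of *MDM4* overexpressed cells are each numbered as replicate 1, 2 or 3. MDM4 is a relative of MDM2 that binds and inhibits p53, and the study asked what it does in cells whose p53 is mutant. MDM4 was introduced on plasmids by transient transfection, and the promoter of the plasmid is not given in the sources used here. A plasmid transfection is the treatment named for the control libraries too, while the insert of the control plasmid is not stated in the labels. The labels call the other group "exercised", which was read as the *MDM4* overexpressed group because it is the only group besides the control. Nothing in the labels says that the replicates were separate cultures, so p-values measure only the spread between these libraries, which may be technical.

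Double-stranded RNA and foreign nucleic acid in the cytosol trigger the synthesis of type I and type III interferons, whose receptors signal to transcription factors in the nucleus. IRF9 is the subunit that directs them to interferon-stimulated response elements, where they switch on a broad set of genes. Among the products are enzymes that stop translation, edit or degrade RNA, or starve a virus of nucleotides, and many of them are also present at a basal level in epithelial tumour cells.

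Expression was given as FPKM, that is, sequenced fragments assigned to a gene, scaled to the length of the gene and to the size of the library. Between 32921704 and 44562216 reads per library lay on the listed genes, with control replicates 1 to 3 at 44562216, 35521708 and 40085018 and MDM4 replicates 1 to 3 at 36273297, 34585762 and 32921704. Values per library are given in the order of replicates 1, 2 and 3 throughout. *MDM4*, the overexpressed gene, was at 6.35, 7.09 and 5.13 FPKM in the 3 control libraries and at 188, 185 and 56.3 FPKM in the 3 MDM4 libraries. Each MDM4 library lay above each control library, and the level in MDM4 replicate 3 was 0.301 times the mean of MDM4 replicates 1 and 2. The identity of the cells was checked with marker genes. All 7 markers of colon epithelial tumour cells were present in all 6 libraries, and *KRT8*, a keratin of simple epithelia, was the most abundant of them with values from 1550 to 1876 FPKM. Summed over 6 leukocyte markers, the level was between 0.843 and 1.74 FPKM, and none of these markers reached 1 FPKM in any library. The most abundant of them, the monocyte receptor *CD14*, was at 0.813 FPKM or less and *PTPRC*, which encodes CD45, at 0.0142 FPKM or less. The sum of 3 endothelial markers was between 0.316 and 0.648 FPKM. Of 5 fibroblast markers, 4 stayed under 1 FPKM in every library, and the sum, between 1.75 and 3.94 FPKM, came almost entirely from *COL1A1*, a collagen chain. In bulk libraries fewer cells that express a gene and less RNA of it in each cell cannot be told apart.

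The promoters of these genes are of interest because a known route to their induction runs through interferon-stimulated response elements. The letters GAAANNGAA, the core of such an element, were searched on both strands (TTCNNTTTC on the other strand) in RefSeq promoter windows on GRCh38.p14 that run from 250 bases before to 50 bases after each annotated start. The windows were available for 7 of the 10 genes, namely all except *ZNFX1*, *APOBEC3F* and *APOBEC3G*, and a match was found in 4 of the 7. It was in 5 of their 12 windows, against 8.11% of the 35116 windows and 9.86% of the 27305 symbols in the whole promoter table. Each match is shown in capitals with 10 bases on either side, read 5′ to 3′ along the strand of the gene.
RSAD2: agcgggaaacGAAAGCGAAgcgttgcggg
CMPK2: cccgcaacgcTTCGCTTTCgtttcccgct
EIF2AK2: agtccaagggGAAAACGAAactgagaacc
ISG20: taacaaactaGAAACTGAAacagggtcgg
RSAD2, second start: tgtttcaactTTCAGTTTCacatgtggaa
The *RSAD2* stretch lies on the plus strand at chr2:6865796-6865824, with the match beginning 79 bases before the annotated start. The *CMPK2* stretch is the same 29 bases read from the minus strand, so these neighbours share a single match, which begins 5 bases after 1 of the 3 annotated starts of *CMPK2*. The *EIF2AK2* stretch lies at chr2:37156968-37156996 on the minus strand, with the match beginning 6 bases before the start. The *ISG20* stretch lies at chr15:88638937-88638965 on the plus strand, with the match beginning 69 bases before the start. The last stretch lies at chr2:6877623-6877651 on the plus strand, with the match beginning 144 bases before a second annotated start of *RSAD2*. A match is a description of the letters and does not show that a factor was bound. The windows of the other 2 starts of *CMPK2*, the 3 windows of *ADAR* and the windows of *SAMHD1* and *PNPT1* held no match, which says only that these letters are not in those windows.

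In GENCODE release 29 on GRCh38, *CMPK2* lies on the minus strand at chr2:6840570-6866635 and *RSAD2* on the plus strand at chr2:6865806-6898239. The RefSeq starts next to the shared match are 66 bases apart, and the GENCODE spans overlap by 830 bases, with 14 exonic bases in common. *APOBEC3F* at chr22:39040604-39053910 and *APOBEC3G* at chr22:39077005-39087743 are also neighbours, both on the plus strand and 23094 bases apart. They are related in sequence, and the counting of reads that fit both is not described, so their values are uncertain to that extent. The remaining genes lie apart, *EIF2AK2* at chr2:37099210-37157065, *PNPT1* at chr2:55634265-55693910, *ADAR* at chr1:154582057-154628013, *SAMHD1* at chr20:36889773-36951901, *ZNFX1* at chr20:49237946-49278426 and *ISG20* at chr15:88636153-88656483. Exons of *SAMHD1* overlap those of *TLDC2* on the other strand by 1159 bases, 10.3% of its exonic bases. On the other strand *ZNFX1* shares 249 exonic bases with *ZFAS1* and 203 with *DDX27*, and *EIF2AK2* shares 401 with the pseudogene *AC007899.1* and 35 with *GPATCH11*. Whether reads were counted by strand is not given in the sources used here. *TLDC2* was at no more than 2.72 FPKM in any library and *GPATCH11* at no more than 8.26 FPKM, while *DDX27*, at 44.2 to 49.3 FPKM, was above *ZNFX1* in each library.

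Per length, the 10 genes covered a wide range of levels in the control cells. *ADAR* was the highest at 62.2 ± 7.24 FPKM (SD, n = 3), a level above that of 91.0% of the tested genes. *APOBEC3G* followed at 38.6 ± 10.9 FPKM (SD, n = 3), and the values of these neighbours in the order did not overlap. *ZNFX1* (24.9 ± 3.51 FPKM), *EIF2AK2* (24.6 ± 7.96 FPKM), *PNPT1* (23.0 ± 4.34 FPKM), *SAMHD1* (20.7 ± 3.38 FPKM) and *APOBEC3F* (15.3 ± 4.06 FPKM) came next, each overlapping its neighbour in the order. *ISG20* at 6.14 ± 0.986 FPKM, *CMPK2* at 1.35 ± 0.652 FPKM and *RSAD2* at 0.313 ± 0.247 FPKM (SD, n = 3 each) stood below all of these without overlap. The 2 genes that share the match were thus the least abundant of the 10, and *RSAD2* was under the mean of 0.5 FPKM asked for in the test over all genes. It was fitted separately among 17189 genes without that filter.

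**Figure D1:**
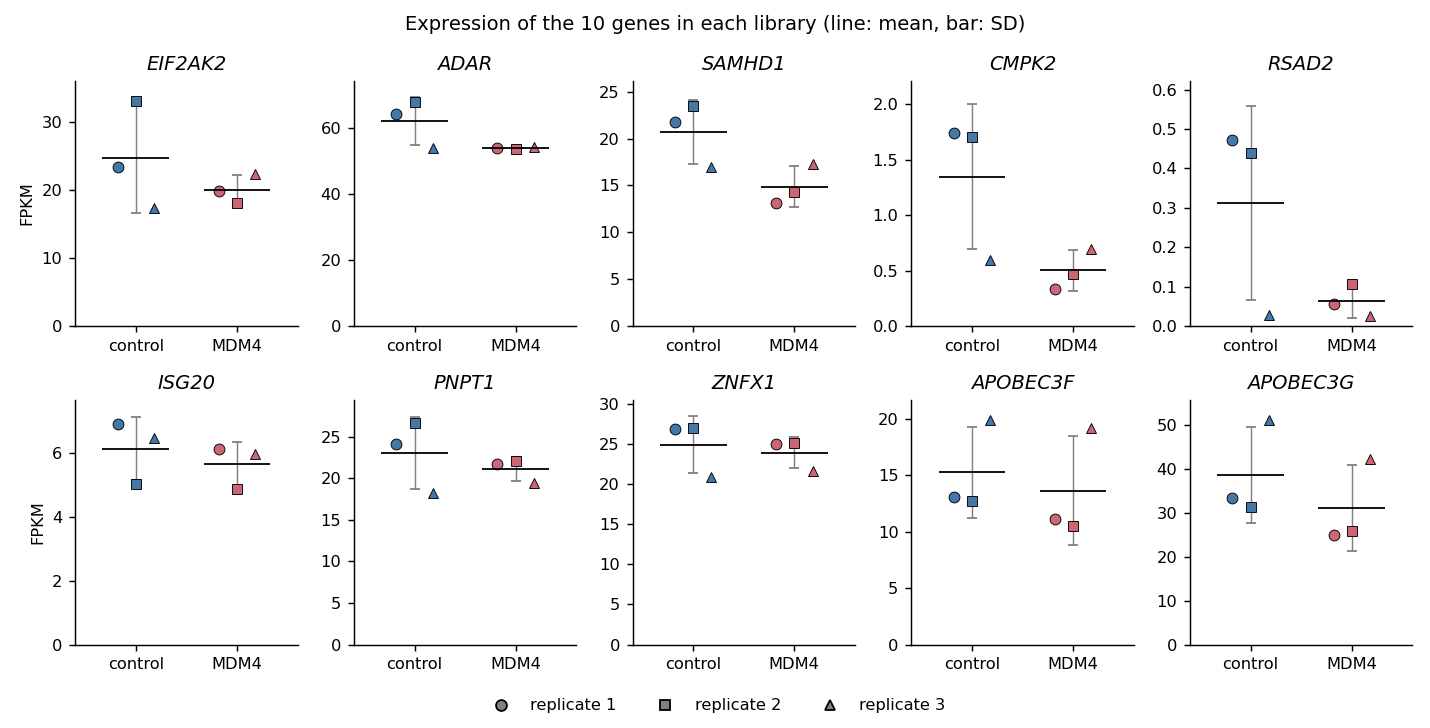
FPKM (linear axes from 0) of each of the 10 genes in the 3 control and 3 MDM4 libraries, with a symbol for each replicate number, lines at the group means and bars of 1 SD (n = 3). For *CMPK2*, control replicates 1 and 2 lie at 1.74 and 1.71 FPKM and the other 4 libraries between 0.334 and 0.695 FPKM, while *APOBEC3F* and *APOBEC3G* are highest in replicate 3 of both groups.

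Over all 6 libraries, none of the 10 genes passed the test for a difference between *MDM4* overexpressed and control cells. The comparison used limma on log2(FPKM + 0.1) with Benjamini-Hochberg adjustment over all tested genes, and genes past an adjusted p of 0.05 whose log2 fold change also exceeded 1 in size were called DEGs. Of the 12884 genes tested, 0 (0%) had an adjusted p under 0.05 and 222 an unadjusted p under 0.05, and voom on recovered reads gave 0 DEGs as well. *MDM4* itself, with a log2 fold change of 4.33 (SE 0.43), did not pass this test either (limma adjusted p = 0.161). With the replicate number as a block there were 2 DEGs, of which *MDM4* was 1 (limma adjusted p = 4.77e-05), and none of the 10 genes was the other. All 10 genes had a negative log2 fold change. Over the 9 of them that passed the filter the median was -0.19, against -0.0091 over all tested genes. The unadjusted p was under 0.05 for 2 of the 10, *SAMHD1* and *CMPK2*, and every adjusted p from limma was 0.9999, with *RSAD2* from the fit without the filter. The abbreviation SE stands for the standard error of a log2 fold change. In none of the 10 did the 3 MDM4 values stay clear of the 3 control values, whereas the groups did not overlap in 6.85% of all tested genes.

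By sign, the pair of replicate 3 differed from those of replicates 1 and 2 in some of the 10 genes. This describes single pairs, with 1 library per group in each, and the test of the difference is given further below. Compared with the control library of the same number, all 10 genes were lower in MDM4 replicate 1 and all 10 in MDM4 replicate 2, but only 4 in MDM4 replicate 3. Over the 9 genes that passed the filter, the median difference on log2(FPKM + 0.1) was -0.24, -0.28 and 0.027 in the pairs of replicates 1, 2 and 3. Over all tested genes it was -0.023, 0.0016 and -0.0043. A total of 6 genes were lower in replicates 1 and 2 and higher in replicate 3, a sequence of signs found in 9.07% of all tested genes. Over replicates 1 and 2 alone (2 libraries per group), *SAMHD1* and *CMPK2* were lower with an adjusted p under 0.05 from limma, where 0.557% of 12746 genes were called lower and 0.0235% higher. *CMPK2* met the filter on low values there only through its control libraries, so its call is not read against that share. In these 4 libraries the MDM4 values lay below the control values without overlap in 9 of the 10 genes, all except *ISG20*, and in 20.9% of the tested genes. Of the 9, *RSAD2* is not among the tested genes, and *CMPK2* is among them only through its control libraries. Neither is read against that share. The level of *MDM4* itself also differed between MDM4 replicate 3 and the other MDM4 libraries, as given above, and its part in these differences was not tested.

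**Figure D2:**
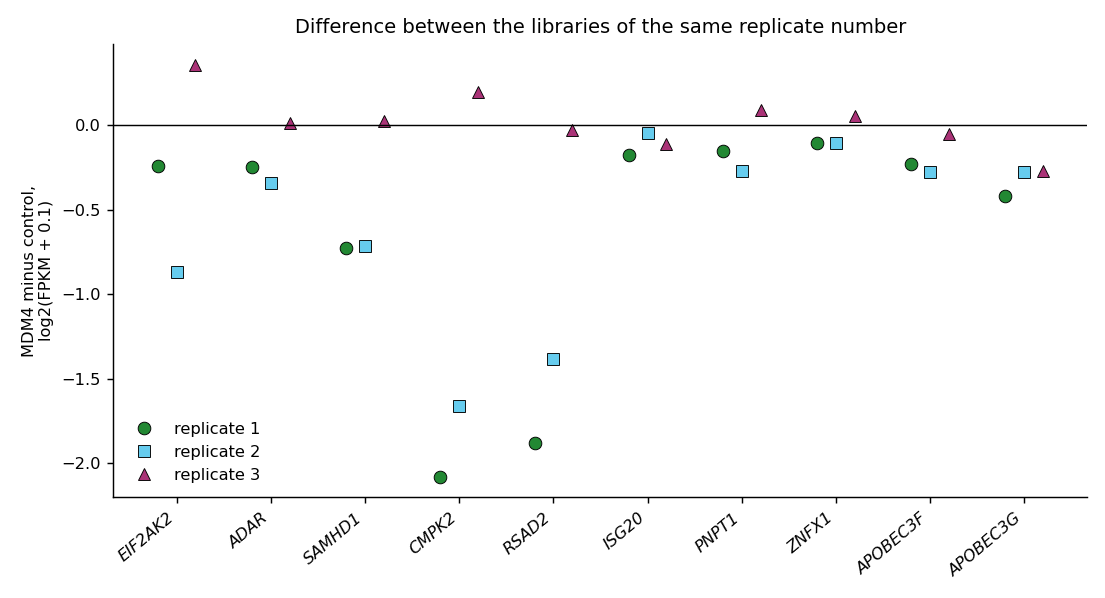
Difference between the MDM4 and the control library of the same replicate number, on the log2(FPKM + 0.1) scale, for each of the 10 genes. Replicates 1 and 2 lie below 0 for all 10 genes, by over 1 for *CMPK2* and *RSAD2*, and replicate 3 lies between -0.27 and 0.36.

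**Figure D3:**
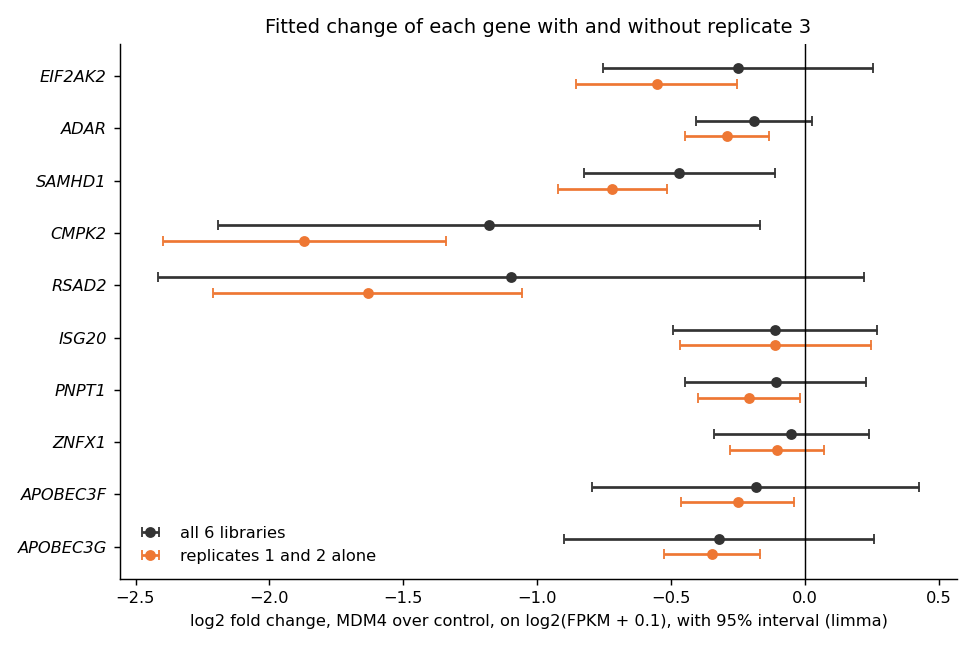
Fitted log2 fold change (MDM4 over control, on log2(FPKM + 0.1)) with its 95% interval from limma, over all 6 libraries (dark) and over replicates 1 and 2 alone (orange). *RSAD2* comes from the fit without the filter on low values, and the intervals of *SAMHD1* and *CMPK2* stay below 0 in both fits although their adjusted p over all 6 libraries is 0.9999.

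Among the proteins that bind double-stranded RNA, *EIF2AK2* encodes PKR, the kinase that phosphorylates eIF2α and so halts translation. It was at 23.4, 33.2 and 17.4 FPKM in the 3 control libraries and at 19.8, 18.1 and 22.3 FPKM in the 3 MDM4 libraries, from at least 2541 reads. Control replicate 2 was the highest and control replicate 3 the lowest of the 6 libraries, and the groups overlapped. The log2 fold change was -0.25 (SE 0.22, limma adjusted p = 0.9999). Relative to the control of the same number, the MDM4 library was at 84.7% in replicate 1, 54.5% in replicate 2 and 128% in replicate 3. With replicate 3 left out, the log2 fold change became -0.55 (SE 0.14, limma adjusted p = 0.175). When control replicate 2 alone was left out, it became -0.012 (limma adjusted p = 0.993).

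*ADAR* encodes the deaminase that converts adenosine to inosine in double-stranded RNA and thereby hides the RNA of the cell from its own sensors. Its level was 64.3, 68.1 and 54.1 FPKM in the 3 control libraries and 54.1, 53.8 and 54.5 FPKM in the 3 MDM4 libraries, from at least 11901 reads. Control replicates 1 and 2 stood above the other 4 libraries, which lay between 53.8 and 54.5 FPKM. With a log2 fold change of -0.19 (SE 0.093) the difference did not pass the test over all 6 libraries (limma adjusted p = 0.9999). Over replicates 1 and 2 alone it was -0.29 (SE 0.072, limma adjusted p = 0.172). Leaving out single libraries moved it between -0.12 (no control replicate 2) and -0.29 (no control replicate 3). The MDM4 library was at 84.2%, 79.0% and 101% of the control library in replicates 1, 2 and 3.

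Of the enzymes that act on nucleotides, SAMHD1 hydrolyses deoxynucleoside triphosphates and so lowers the supply of DNA precursors to retroviruses. *SAMHD1* was at 21.8, 23.5 and 16.9 FPKM in the 3 control libraries and at 13.1, 14.3 and 17.3 FPKM in the 3 MDM4 libraries, from at least 1524 reads. The highest values were again in control replicates 1 and 2 and the lowest in MDM4 replicates 1 and 2, with both libraries of replicate 3 in between, so that the groups overlapped. Over all 6 libraries the log2 fold change was -0.47 (SE 0.15, limma adjusted p = 0.9999). The exact two-sided permutation test gave p = 0.2, where 0.1 is the smallest that 3 against 3 libraries allow. In replicates 1 and 2 alone, *SAMHD1* fell by 0.72 on the log2 scale (SE 0.093, limma adjusted p = 0.00246). The MDM4 library was at 60.3% of the control in replicate 1, 60.8% in replicate 2 and 102% in replicate 3.

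*CMPK2* encodes a mitochondrial kinase that phosphorylates UMP and CMP, and its product can feed the reaction that RSAD2 catalyses. Its level was 1.74, 1.71 and 0.594 FPKM in the 3 control libraries and 0.334, 0.472 and 0.695 FPKM in the 3 MDM4 libraries. Control replicates 1 and 2 were well above the other 4 libraries, and MDM4 replicate 3 was above control replicate 3. The reads behind these values numbered 166, 130 and 51 in the control and 26, 35 and 49 in the MDM4 libraries. The log2 fold change was -1.18 (SE 0.43, limma adjusted p = 0.9999) over all 6 libraries, and -0.61 with 1 FPKM added in place of 0.1. In replicates 1 and 2 alone, *CMPK2* fell by 1.87 on the log2 scale (SE 0.24, limma adjusted p = 0.00246), and it is the 1 DEG among the 10 genes there. Both MDM4 libraries of that fit are under 0.5 FPKM. As a ratio of reads per library total, MDM4 over control was 0.192 in replicate 1 (95% exact interval 0.122 to 0.292), 0.277 in replicate 2 (0.185 to 0.404) and 1.17 in replicate 3 (0.774 to 1.77). These intervals cover counting error only.

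*RSAD2* encodes viperin, the radical SAM enzyme that turns CTP into a chain terminator of viral RNA synthesis. It was at 0.471, 0.439 and 0.0283 FPKM in the 3 control libraries and at 0.0547, 0.107 and 0.0259 FPKM in the 3 MDM4 libraries. These stand for 74, 55 and 4 reads in the control and 7, 13 and 3 reads in the MDM4 libraries. As with its neighbour *CMPK2*, control replicates 1 and 2 were the highest, but *RSAD2* in MDM4 replicate 3 was no higher than in the other MDM4 libraries. The ratio of reads per library total was 0.116 in replicate 1 (95% exact interval 0.0452 to 0.252) and 0.243 in replicate 2 (0.122 to 0.450). In replicate 3, with 3 reads against 4, it was 0.913 (0.134 to 5.40), so no difference was detectable at this depth. Fitted without the filter, the log2 fold change was -1.10 (SE 0.56, limma adjusted p = 0.9999) over all 6 libraries and -1.63 (SE 0.25, limma adjusted p = 0.0599) over replicates 1 and 2 alone. Over all libraries it lay between -0.73 (no control replicate 1) and -1.80 (no control replicate 3) when single libraries were left out. The added 0.1 FPKM understates the change of a gene at this level, and the value over all 6 libraries was -1.64 with 0.01 FPKM added and -0.29 with 1 FPKM added. It was -2.05 with voom and the replicate block, and over its alternatives the adjusted p from limma was between 0.0599 and 1.

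**Figure D4:**
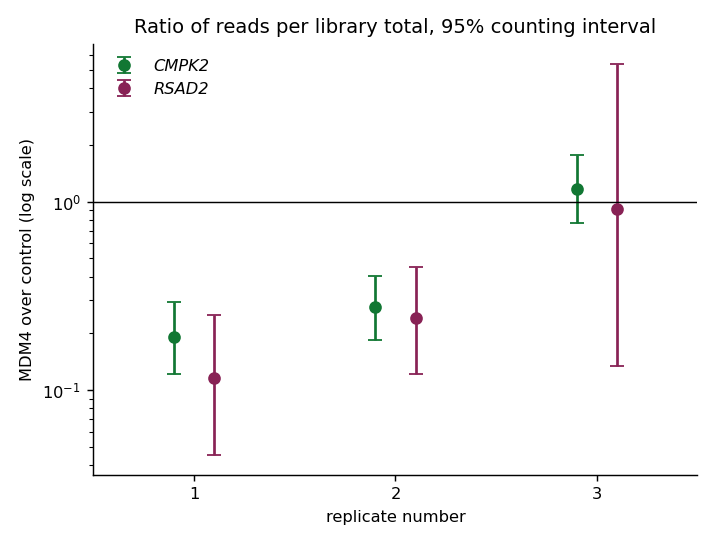
Reads of *CMPK2* and *RSAD2* per library total, MDM4 divided by control for each replicate number (log axis), with 95% exact intervals that cover counting error only. The intervals of replicates 1 and 2 end at or below 0.450 and those of replicate 3 include 1.

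The RNA-degrading enzymes *ISG20* and *PNPT1* and the RNA helicase *ZNFX1* did not pass the test in either fit. *ISG20* encodes an exonuclease that degrades single-stranded RNA from its 3′ end. It was at 6.91, 5.03 and 6.47 FPKM in the 3 control libraries and at 6.11, 4.86 and 5.98 FPKM in the 3 MDM4 libraries. Replicate 2 was the lowest library of both groups, and the groups overlapped over all replicates as well as in replicates 1 and 2. The log2 fold change was -0.11 over all 6 libraries and -0.11 over replicates 1 and 2 (SE 0.16 in both fits), with adjusted p-values of 0.9999 and 0.883 from limma. The 95% interval of the second fit ran from -0.47 to 0.25. Leaving out single libraries moved the value over all libraries between -0.0090 (no MDM4 replicate 2) and -0.25 (no control replicate 2).

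*PNPT1* encodes polynucleotide phosphorylase, which degrades RNA in mitochondria and limits the escape of mitochondrial double-stranded RNA. Its values were 24.1, 26.7 and 18.2 FPKM in the 3 control libraries and 21.7, 22.1 and 19.4 FPKM in the 3 MDM4 libraries. Both libraries of replicate 3 were the lowest of their groups, and the control values enclosed the MDM4 values. The log2 fold change was -0.11 (SE 0.15, limma adjusted p = 0.9999), and it was -0.21 (SE 0.087, limma adjusted p = 0.569) over replicates 1 and 2. Without control replicate 2 it was 0.0058.

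*ZNFX1* encodes a helicase with a zinc finger region that binds viral double-stranded RNA at mitochondria. It was at 26.9, 27.1 and 20.9 FPKM in the 3 control libraries and at 25.0, 25.1 and 21.7 FPKM in the 3 MDM4 libraries. Here, too, replicate 3 was the lowest of both groups, and the control values enclosed the MDM4 values. The log2 fold change of -0.052 (SE 0.12, limma adjusted p = 0.9999) was the smallest in size of the 10. Leaving out control replicate 1, control replicate 2 or MDM4 replicate 3 turned it to 0.0069, 0.012 and 0.018, with adjusted p-values of 0.98 or more from limma.

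The 2 cytidine deaminases, which mutate retroviral DNA by converting cytosine to uracil, were the genes among the 10 that were highest in replicate 3 of both groups. *APOBEC3G* was at 33.4, 31.4 and 51.2 FPKM in the 3 control libraries and at 25.0, 25.8 and 42.4 FPKM in the 3 MDM4 libraries. *APOBEC3F* was at 13.1, 12.7 and 19.9 FPKM in the control and at 11.2, 10.5 and 19.2 FPKM in the MDM4 libraries, in the same order. In replicate 3 they were at between 1.54 and 1.77 times the mean of replicates 1 and 2. *APOBEC3G* was lower with MDM4 in all 3 pairs, at 74.8%, 82.4% and 82.8% of the control. Its log2 fold change was -0.32 (SE 0.25, limma adjusted p = 0.9999), and single libraries moved it between -0.10 (no control replicate 3) and -0.57 (no MDM4 replicate 3). It was -0.35 (SE 0.082, limma adjusted p = 0.141) in replicates 1 and 2. For *APOBEC3F* it was -0.19 (SE 0.26, limma adjusted p = 0.9999) and -0.25 (SE 0.096, limma adjusted p = 0.517) in the same fits, and 0.022 when control replicate 3 was left out. With the replicate number as a block, *APOBEC3G* had the smallest adjusted p of the 10 genes, 0.219 from limma, for the same log2 fold change with an SE of 0.059, and over all its alternatives the adjusted p was between 0.0716 and 1.

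The other AID/APOBEC deaminases were examined for the same order, and among them the genes named besides *APOBEC3C* were chosen after their values were seen. Of 9 genes, 4 were tested, none passed the test in either fit, and 5 stayed under 1 FPKM in every library, *APOBEC3A* among them. *APOBEC3C*, the most abundant of the family, was at 104, 99.2 and 141 FPKM in the 3 control libraries and at 96.2, 101 and 131 FPKM in the 3 MDM4 libraries. *APOBEC3D*, at a much lower level, was at 0.893, 0.975 and 1.82 FPKM in the control and at 1.02, 0.852 and 1.91 FPKM in the MDM4 libraries. Like *APOBEC3F* and *APOBEC3G*, both were highest in replicate 3 of each group. *APOBEC3B*, an often abundant deaminase in tumours, was at 71.5, 68.2 and 65.0 FPKM in the control and 58.3, 62.9 and 62.6 FPKM in the MDM4 libraries. Its groups did not overlap, with a log2 fold change of -0.16 (SE 0.069, limma adjusted p = 0.9999).

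**Figure D5:**
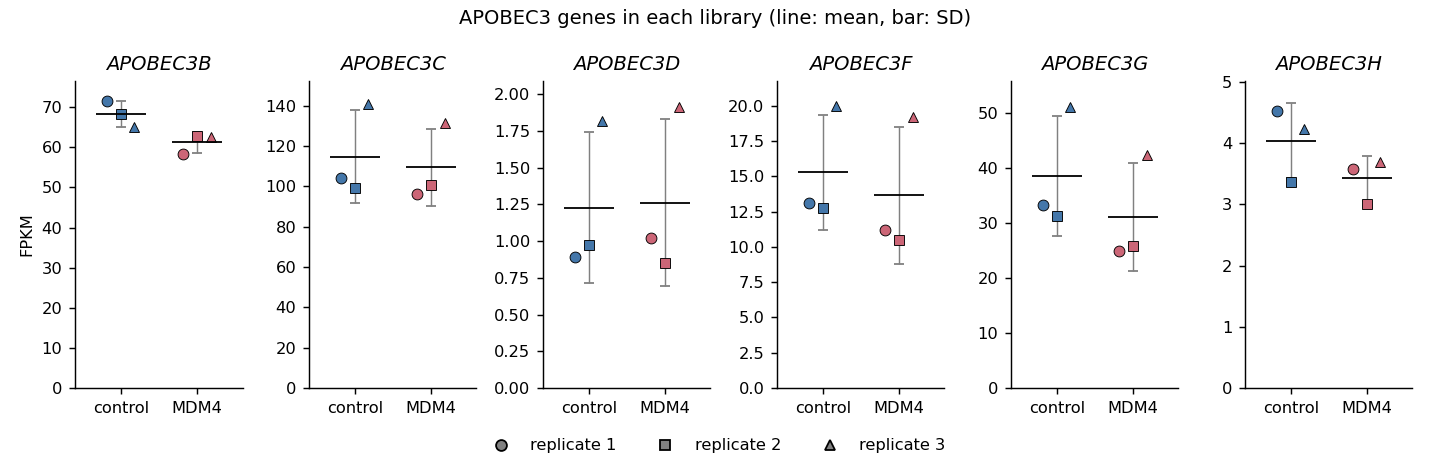
FPKM (linear axes from 0) of 6 APOBEC3 genes in each library, with lines at the group means and bars of 1 SD (n = 3); *APOBEC3A*, which did not exceed 0.316 FPKM, is not drawn. Replicate 3 (triangles) is the highest library of both groups for *APOBEC3C*, *APOBEC3D*, *APOBEC3F* and *APOBEC3G*, but not for *APOBEC3B* or *APOBEC3H*.

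Whether the difference between the groups was itself another in replicate 3 was tested with an interaction term over all 6 libraries, which rests on 1 library per group in replicate 3. The term is the log2 difference of MDM4 from control in replicate 3 less that in replicates 1 and 2. It had an adjusted p under 0.05 from limma in 25 of 12884 genes (0.194%) and in 0 of the 10 genes. The largest was 2.07 for *CMPK2* (SE 0.44, limma adjusted p = 0.201). *EIF2AK2* had 0.91 (SE 0.24, limma adjusted p = 0.577) and *SAMHD1* 0.75 (SE 0.16, limma adjusted p = 0.216). For *APOBEC3G* (0.076, SE 0.14) and *ISG20* (-0.0021, SE 0.28) the term was smaller than its standard error. Fitted without the filter, *RSAD2* had 1.61 (SE 0.31, limma adjusted p = 0.715).

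The partners of these enzymes were described with lists of known genes. Over all 6 libraries 0 genes of the lists passed the test with limma. Of the factors of interferon signalling, *IRF9* and *IRF7* fell in replicates 1 and 2 alone, and 0 rose. *IRF9*, a DNA-binding subunit of the interferon-activated complex, was at 19.6, 17.2 and 6.98 FPKM in the control and at 3.80, 4.76 and 7.12 FPKM in the MDM4 libraries. It had the order seen in *SAMHD1* and *CMPK2*, with control replicates 1 and 2 above the other 4 libraries. In replicates 1 and 2 alone, *IRF9* fell by 2.08 on the log2 scale (SE 0.13, limma adjusted p = 3.42e-06). *IRF7*, a factor that amplifies interferon synthesis, fell by 1.19 (SE 0.12, limma adjusted p = 0.000387).

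Around PKR, 0 of 16 genes of eIF2 control passed the test in either fit, and their median log2 fold change in replicates 1 and 2 was -0.028, against -0.0078 over all tested genes. *EIF2S3*, the γ subunit of eIF2 and the most abundant of them, was between 123 and 134 FPKM in all 6 libraries. Of 7 further adenosine deaminases that act on RNA or tRNA, 4 were tested and none passed. The most abundant, the editing enzyme *ADARB1*, was between 9.03 and 10.8 FPKM, against the 53.8 to 68.1 FPKM of *ADAR*. Next to SAMHD1 and CMPK2, 0 of 19 other enzymes of deoxynucleotide and pyrimidine metabolism passed, with a median of 0.00086 in replicates 1 and 2. *RRM2*, the small subunit of ribonucleotide reductase, was at 179, 197 and 143 FPKM in the 3 control libraries and at 178, 191 and 144 FPKM in the 3 MDM4 libraries. It was thus lower in replicate 3 of both groups and alike within each pair.

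Among 16 other exonucleases and factors of RNA decay, 0 passed the test, and the most abundant, the nuclear 5′ exonuclease *XRN2*, stayed between 81.8 and 84.9 FPKM. Of 9 other helicases of the superfamily of ZNFX1, 8 were tested, and 1 fell in replicates 1 and 2 alone. This was *HELZ2*, a helicase and coactivator of nuclear receptors named here after its values were seen. It was at 16.2, 14.1 and 11.8 FPKM in the 3 control libraries and at 7.76, 7.84 and 11.5 FPKM in the 3 MDM4 libraries, so the groups did not overlap. Its log2 fold change was -0.95 in replicates 1 and 2 (SE 0.10, limma adjusted p = 0.000686) and -0.64 over all 6 libraries (SE 0.19, limma adjusted p = 0.9999). *UPF1*, the helicase of nonsense-mediated decay and the most abundant of the list, was at 49.8, 46.2 and 36.5 FPKM in the control and at 48.5, 48.0 and 34.5 FPKM in the MDM4 libraries.

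To describe the shared pattern, the log2 values of the 9 genes that passed the filter were scaled for each gene and averaged in each library. *SAMHD1* followed this mean best (Pearson r = 0.98), before *CMPK2* (0.97), *ADAR* (0.92) and *EIF2AK2* (0.81). *PNPT1* had 0.58, *ZNFX1* 0.42, *APOBEC3G* 0.25, *ISG20* 0.21 and *APOBEC3F* 0.16. Each gene is part of the mean it was compared with, and the 6 libraries share 2 groups and 3 replicate numbers, so these values are a description. The 5 other genes most like the mean were *OASL* (r = 0.997), *PARP12* (0.990), *BST2* (0.989), *IFITM1* (0.986) and *IFIT1* (0.984). *OASL*, a relative of the oligoadenylate synthetases that enhances RNA sensing, was at 5.68, 5.57 and 2.72 FPKM in the 3 control libraries and at 1.93, 1.69 and 2.73 FPKM in the 3 MDM4 libraries. *IFITM1*, a membrane protein that restricts viral entry, was at 92.0, 92.7 and 43.1 FPKM in the control and at 18.5, 17.4 and 38.4 FPKM in the MDM4 libraries. In both, control replicates 1 and 2 were the highest and MDM4 replicates 1 and 2 the lowest libraries. For *PARP12*, a mono-ADP-ribosyltransferase, the MDM4 library was at 72.0%, 67.5% and 106% of the control in replicates 1, 2 and 3.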

How the data were processed

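Libraries of oligo(dT)-selected mRNA were run on an Illumina HiSeq2000. The authors deposited FPKM values, and the aligner, counter, annotation, genome build and strand setting are not given in the sources used here. Column names hold 1 letter, taken as the group, and 1 number, taken as the replicate. Values of a gene within a library are multiples of the worth of 1 read, so read numbers could be computed. They were found for 17189 of 17189 genes above 0 (100%), within 0.02 of a whole read or somewhat more for abundant genes. A gene above 0 in few libraries nearly always allows such a solution, so this share is not a check of the method. The reads served for depth, intervals and voom. On simulated data the method returned all reads exactly for 99.1% of 1816 genes with reads in most libraries.

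Genes averaging 0.5 FPKM or more, 12884 in all, entered limma 3.58.1 (R 4.3.3, eBayes with trend) as log2(FPKM + 0.1). *RSAD2*, under that mean, was fitted among all 17189 genes above 0, an alternative chosen after seeing the data. Permutation tests and exact intervals used scipy 1.17.1, and plots matplotlib 3.10.9. Same-numbered libraries deviated together from their group means (r across genes 0.46, 0.45 and 0.78 in replicates 1 to 3). Replicates 1 and 2 correlated as well across numbers (0.46 and 0.44), so these values set only replicate 3 apart. The numbers were taken to pair the libraries, which for replicates 1 and 2 is an assumption.

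The genes, the lists and the comparison without replicate 3 were chosen with earlier results of these data known. Named genes are the 10, *MDM4*, list genes that are DEGs or the most abundant in control, and the 5 genes most like the 10. Alternatives were the block, voom, each library left out, eBayes without trend, and other scalings, filters and pseudocounts. A planned comparison of the APOBEC3F and APOBEC3G proteins was not run. A gene of the lists is not reported here.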

Additional observations from a re-analysis of the deposited data

Results flagged for a closer look

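In 6 of the 10 genes both pairs of replicates 1 and 2 had the MDM4 library below the control library and the pair of replicate 3 had it above. The log2 difference of MDM4 from control in replicate 3 less that in replicates 1 and 2 was 2.07 for *CMPK2*, 0.91 for *EIF2AK2* and 0.75 for *SAMHD1*. It was 0.30 for *ADAR*, 0.30 for *PNPT1* and 0.16 for *ZNFX1*. None of these had an adjusted p under 0.05 from limma, the smallest being 0.201, and each rests on 1 library per group in replicate 3. *MDM4* itself had a term of -1.35 (adjusted p = 0.00166 from limma), and its level in MDM4 replicate 3 was the lowest of the 3 MDM4 libraries. The part of that level in the differences of the 6 genes was not tested.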

How the results depend on the processing

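Over the 10 genes and their alternatives there were 177 fitted values, of which 170 kept their direction and their side of the threshold, 2 passed it and 5 changed sign. Both that passed it came from replicates 1 and 2 alone, where *SAMHD1* and *CMPK2* were lower with an adjusted p under 0.05 from limma. By that threshold 0.557% of 12746 genes were called lower and 0.0235% higher. *CMPK2* met the filter there only through its control libraries, so its call is not read against that share. With a log2 fold change over 1 in size also required, 37 genes of the whole table were DEGs, with *CMPK2* but not *SAMHD1* among them. With the replicate block, 2 genes of the table were DEGs, and with voom and the replicate block 15, while neither fit called any of the 10 genes. Leaving out each library in turn gave 0 to 16 DEGs, with 16 without control replicate 3 and 1 without MDM4 replicate 3. In the same runs the log2 fold change was between -0.27 and 0.0058 for *PNPT1*, between -0.17 and 0.018 for *ZNFX1* and between -0.46 and 0.022 for *APOBEC3F*, and the values above 0 are those given with each gene. The cause of these changes was not tested. The median over the tested genes among the 10 stayed between -0.33 and -0.16 under all alternatives. *CMPK2* could not be fitted with a filter of at least 1 FPKM, since its mean is below it. *RSAD2*, with 3 to 13 reads in 4 of the libraries, is limited by depth.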
